A study of Homo sapiens with 2 samples.

Results

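The genes described here are 7 genes of endosomal sorting, vesicle traffic and autophagy, VPS37B, TSG101, VPS4B, STAMBP, SNX16, RAB8A and VMP1, whose starts lay near peaks of CREB chromatin immunoprecipitation (ChIP) in NGP, a human neuroblastoma cell line. They were taken by name from the authors' deposited table, which pairs peaks with transcription start sites (TSS) within 50 kb and names 2495 symbols in all. For each gene the peak with its summit nearest to the TSS was kept and the other pairs are given beside it. Each of the 7 had a summit at most 1 kb from its TSS, called a promoter peak here, which 265 of 19974 protein-coding genes had (1.33%). The genes were chosen by the presence and fold of these peaks, so both are described and not tested. The series holds 1 library of chromatin precipitated with an anti-CREB antibody and 1 input library, both from NGP cells grown in medium with 20% serum, and no replicate of either. No value below therefore has an error between cultures.

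CREB is a transcription factor that is phosphorylated in response to cAMP and calcium signals. It binds the cAMP response element (CRE), a short palindrome, or one arm of it, most often close to a TSS. The endosomal sorting complexes required for transport (ESCRT) act in order on ubiquitinated membrane proteins. ESCRT-0, ESCRT-I and ESCRT-II gather the cargo, ESCRT-III closes the bud into the endosome, and the VPS4 ATPases take the ESCRT-III polymer apart. The same machinery serves cell division, membrane repair and the closure of autophagosomes, the vesicles that enclose cytoplasm for degradation.

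Promoter sequence was at hand for 5 of the 7 genes, in windows from 250 bases before to 50 bases after the start (RefSeq, build GRCh38.p14). All windows at hand for the 7 genes are shown, and none was picked for its content. Each holds the summit of its peak and at least 1 CRE core. No window was at hand for STAMBP and SNX16. The windows lie at chr12:122896075-122896374 on the minus strand for VPS37B, at chr11:18526893-18527192 on the minus strand for TSG101 and at chr18:63422427-63422726 on the minus strand for VPS4B. Those of RAB8A and VMP1 lie on the plus strand, at chr19:16111639-16111938 and chr17:59707404-59707703. Each sequence is written 5′ to 3′ on the strand of its gene, and capitals mark the CRE palindrome TGACGTCA and the CRE core TGACG, the first 5 letters of the palindrome, or CGTCA where the core lies on the opposite strand.
VPS37B: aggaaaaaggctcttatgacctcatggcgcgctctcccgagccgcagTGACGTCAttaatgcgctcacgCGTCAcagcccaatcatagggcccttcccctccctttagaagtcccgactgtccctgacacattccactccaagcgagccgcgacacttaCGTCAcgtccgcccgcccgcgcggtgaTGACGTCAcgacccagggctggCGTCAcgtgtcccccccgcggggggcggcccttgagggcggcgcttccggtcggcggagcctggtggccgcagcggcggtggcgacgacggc
TSG101: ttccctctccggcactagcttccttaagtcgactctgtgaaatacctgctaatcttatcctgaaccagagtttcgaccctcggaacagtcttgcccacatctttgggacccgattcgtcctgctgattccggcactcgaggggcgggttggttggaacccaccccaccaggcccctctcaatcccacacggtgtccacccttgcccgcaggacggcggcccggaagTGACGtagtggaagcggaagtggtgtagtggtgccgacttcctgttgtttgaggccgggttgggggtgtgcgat
VPS4B: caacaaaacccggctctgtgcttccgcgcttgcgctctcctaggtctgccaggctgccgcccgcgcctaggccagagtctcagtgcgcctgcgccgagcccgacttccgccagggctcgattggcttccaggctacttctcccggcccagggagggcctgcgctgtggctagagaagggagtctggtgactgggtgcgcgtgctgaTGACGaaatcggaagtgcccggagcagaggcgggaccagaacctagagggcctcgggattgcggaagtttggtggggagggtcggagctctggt
RAB8A: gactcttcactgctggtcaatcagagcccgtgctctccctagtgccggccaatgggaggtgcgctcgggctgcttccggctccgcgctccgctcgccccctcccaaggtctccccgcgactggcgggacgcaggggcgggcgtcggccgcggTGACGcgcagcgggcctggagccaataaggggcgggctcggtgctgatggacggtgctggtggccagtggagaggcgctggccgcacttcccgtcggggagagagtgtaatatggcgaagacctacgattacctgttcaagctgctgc
VMP1: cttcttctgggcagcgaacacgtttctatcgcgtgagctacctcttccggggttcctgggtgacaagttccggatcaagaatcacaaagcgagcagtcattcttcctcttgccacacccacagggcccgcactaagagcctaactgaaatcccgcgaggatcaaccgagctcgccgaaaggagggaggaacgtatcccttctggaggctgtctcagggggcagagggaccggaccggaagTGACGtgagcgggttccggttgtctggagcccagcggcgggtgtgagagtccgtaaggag

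All 7 promoter peaks were stronger than the middle of the list, and those of VPS37B, SNX16 and VMP1 ranked 4, 5 and 6 of 222 promoter peaks. The authors' fold enrichment, which is the ChIP pileup plus 1 over the expected background plus 1 at the summit, ran from 7.71 at TSG101 to 18.4 at VPS37B, with a median of 11.97 over the 7 genes. The 215 other promoter peaks of protein-coding genes had a median fold of 5.57 (quartiles 4.82 to 6.77), and the 5285 peaks of the list a median of 5.24. A promoter peak with a fold of 10 or more was found at 4 of the 7 genes and at 20 of all protein-coding genes (0.100%). The −log10 q of the 7 peaks ran from 7.67 to 60.1, far above the lowest of the list, 1.32. The number of fragments at each summit was recovered from fold and p, and intervals on it are exact Poisson intervals at 95% that cover counting error only.

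VPS37B and TSG101 encode subunits of ESCRT-I, and TSG101 is the subunit that holds ubiquitinated cargo. The VPS37B peak spanned chr12:122895913-122896666 with the summit 71 bp upstream of the TSS. It had 64 fragments (95% interval 49.3 to 81.7) over an expected background of 2.53, a fold of 18.4 and a −log10 q of 60.1. It was the widest of the 7 peaks, at 754 bp, against 220 to 371 bp at the other genes. Of the 215 other promoter peaks, 2 were as wide. The TSG101 peak spanned chr11:18526888-18527124 with the summit 61 bp upstream. It had 9 fragments (95% interval 4.12 to 17.1) over a background of 0.297 and ranked 39 of the promoter peaks. The VPS37B summit thus held more fragments than that of TSG101, with intervals that do not overlap, over a background that was also higher.

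VPS4B, the ATPase that recycles ESCRT-III, and STAMBP, a deubiquitinase of the endosome that removes ubiquitin from cargo, stood on either side of a fold of 10. The VPS4B peak spanned chr18:63422450-63422705, with its summit 26 bp upstream of the TSS. It had 9 fragments (95% interval 4.12 to 17.1) over a background of 0.277, a fold of 7.83. The STAMBP peak spanned chr2:73828892-73829262 and was the only one of the 7 with its summit downstream of the TSS, by 81 bp. It had 15 fragments (95% interval 8.40 to 24.7) over a background of 0.336, a fold of 11.97. The intervals on fragments of VPS4B and STAMBP overlap, so their order is within counting error. The STAMBP start differs by 50 bp between the authors' table and RefSeq, and the summit lay 31 bp downstream of the RefSeq start.

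SNX16, a sorting nexin that binds phosphoinositides of endosomal membranes, had 21 fragments (95% interval 13.0 to 32.1) over a background of 0.246, a fold of 17.7. Its peak spanned chr8:81842395-81842735 and was the only one of the 7 that did not cover the TSS: its near edge lay 109 bp upstream and its summit 164 bp upstream. The RefSeq start of SNX16 lies 101 bp further into the gene, 265 bp from the summit.

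RAB8A, a small GTPase that carries vesicles to the plasma membrane and into the primary cilium, had 2 peaks. The peak at the start spanned chr19:16111666-16111896, with its summit 119 bp upstream of the TSS. It had 11 fragments (95% interval 5.49 to 19.7) over a background of 0.396, a fold of 8.60. A further peak within the gene, at chr19:16115022-16115308, had its summit 3.41 kb downstream of the TSS, with 7 fragments (95% interval 2.81 to 14.4) and a fold of 6.31. The intervals of the 2 peaks overlap. The authors' table also pairs both peaks with TPM4, HSH2D and LINC01855, none of which has its TSS within 1 kb of either summit.

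VMP1, a membrane protein of the endoplasmic reticulum needed to form autophagosomes, had 20 fragments at the start (95% interval 12.2 to 30.9) over a background of 0.386. The fold was 15.2, the third among the 7. The peak spanned chr17:59707504-59707723, with its summit 10 bp upstream of the VMP1 TSS and 46 bp upstream of that of PTRH2, a mitochondrial peptidyl-tRNA hydrolase transcribed from the opposite strand. The 2 TSS are 56 bp apart in the authors' table, so that neither gene can be given the peak alone. The RefSeq start of PTRH2 lies 168 bp further into that gene, 224 bp from the VMP1 start and 214 bp from the summit. No other of the 7 peaks had a second TSS of the table within 1 kb. VMP1 was also paired with a peak 22.0 kb upstream, with 5 fragments and a fold of 4.82, and TSG101 with one 41.0 kb upstream, with 4 fragments and a fold of 4.01. Both folds were below the median of the list. The authors' table pairs the upstream peak of TSG101 with SPTY2D1OS and with UEVLD, a gene related to TSG101, as well. VPS37B, VPS4B, STAMBP and SNX16 were each paired with 1 peak. The table pairs the STAMBP peak with DUSP11 and C2orf78 as well, neither with its TSS within 1 kb of the summit, and gives the peaks of VPS37B, VPS4B and SNX16 no other gene.

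**Figure D1:**
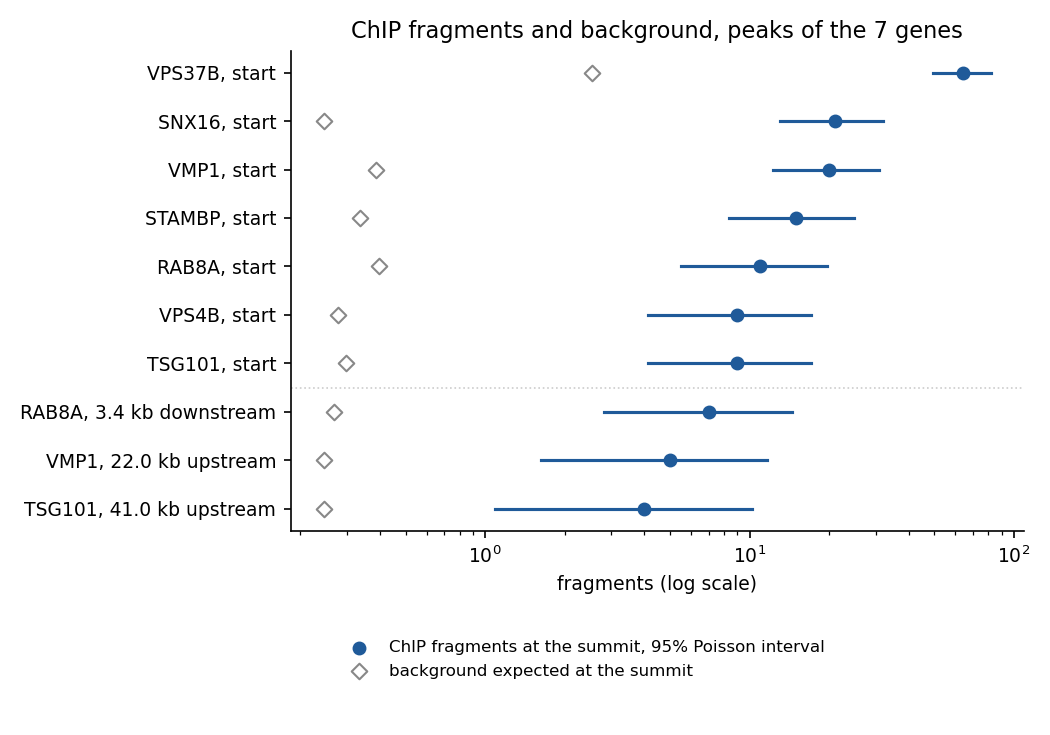
ChIP fragments at the summit (circles, with exact 95% Poisson intervals) and the background expected there (diamonds), on a log axis, for the promoter peaks of the 7 genes and, below the dotted line, their 3 other paired peaks. The VPS37B summit, with 64 fragments, stands to the right of the other 6 starts, which hold 9 to 21, and its background of 2.53 stands to the right of their 0.246 to 0.396.

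The order of the 7 genes depended on how the background entered the ratio. The VPS37B background of 2.53 fragments was far above those of the other 6 genes, which ran from 0.246 to 0.396. Of the 215 other promoter peaks 1, at METTL1, was as high, with 2.97. The next below VPS37B were close to it, with 2.37 at TSPAN31 and 2.21 at both CPSF6 and CCT2. With nothing added to fragments or background, VPS37B had a ratio of 25.3 (95% interval 19.5 to 32.3), the lowest of the 7, and SNX16 one of 85.4 (52.9 to 131), the highest. These 2 intervals do not overlap, while the deposited folds of VPS37B and SNX16 were 18.4 and 17.7. VMP1 had a ratio of 51.8 (31.7 to 80.1), whose interval lies above the VPS37B value but overlaps the VPS37B interval. STAMBP, VPS4B, TSG101 and RAB8A had ratios of 44.6, 32.5, 30.3 and 27.8, each with an interval that covers the VPS37B value, that of STAMBP only just (24.96 to 73.6). The interval counts the error of the ChIP fragments alone and takes the background as exact. The SNX16 background was at the lowest value of the list. Error in the background is left out, so these intervals do not settle the order of VPS37B and SNX16.

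The recovered backgrounds fell on few values. The lowest value, 0.246, recurred at 1657 of the 5285 peaks (31.4%), SNX16 among them. A further 1887 peaks had whole multiples of 0.316 within 0.0001. The VPS37B background was 8 such steps, the lowest value 0.777 of a step. If 1 step is 1 input fragment at the summit, which the sources at hand do not state, the VPS37B start held 8 input fragments beside 64 ChIP fragments. The cause of this background was not tested. No gene of the 7 lay in a 1 Mb window with 10 or more peaks, and the nearest other peak was 3.53 kb away for RAB8A and 22.0 to 673 kb away for the others.

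**Figure D2:**
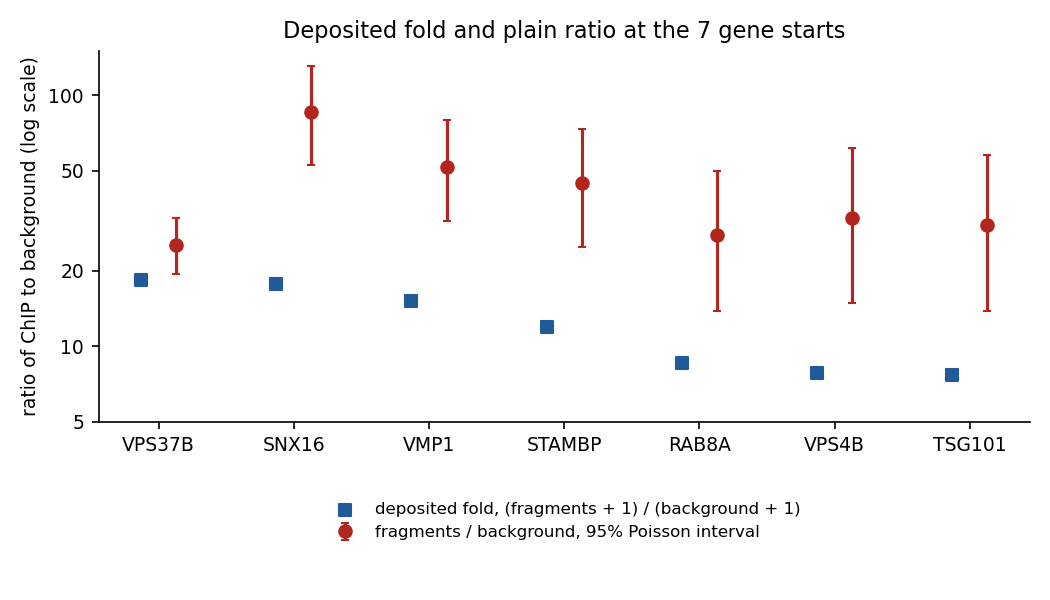
Deposited fold (squares) and fragments over background with nothing added (circles, with 95% Poisson intervals on the fragments), on a log axis, for the 7 genes in order of deposited fold. VPS37B has the highest deposited fold, 18.4, and the lowest plain ratio, 25.3, while SNX16 has the highest plain ratio, 85.4.

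Sequence was not used to choose the genes, and all 5 windows held a CRE core close to the summit. VPS37B stood apart from the other 4 in number. Its window held 2 full palindromes, beginning 203 and 64 bases upstream of the start, and 3 more cores, beginning 181, 91 and 42 bases upstream. The palindrome at chr12:122896181-122896188 lay 7 bp from the summit. Searched on both strands, with each palindrome holding a pair of cores, the window held 7 cores, a number reached in 3 of 22078 windows of protein-coding genes (0.0136%), its own included. At least 2 palindromes were found in 14 of those windows (0.0634%).

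TSG101, VPS4B, RAB8A and VMP1 held no palindrome and 1 core each, all on the strand of the gene. The VMP1 core began 10 bases upstream of the start, at chr17:59707644-59707648, and the summit lay on it. The VPS4B core began 44 bases upstream and lay 14 bp from the summit, and that of RAB8A began 98 bases upstream and lay 21 bp from it. The TSG101 core, 24 bases upstream of the start, lay 37 bp from the summit, the longest gap of the 5. Allowing 1 mismatch to the palindrome, VMP1 also held a match, so that 2 of the 5 windows did.

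**Figure D3:**
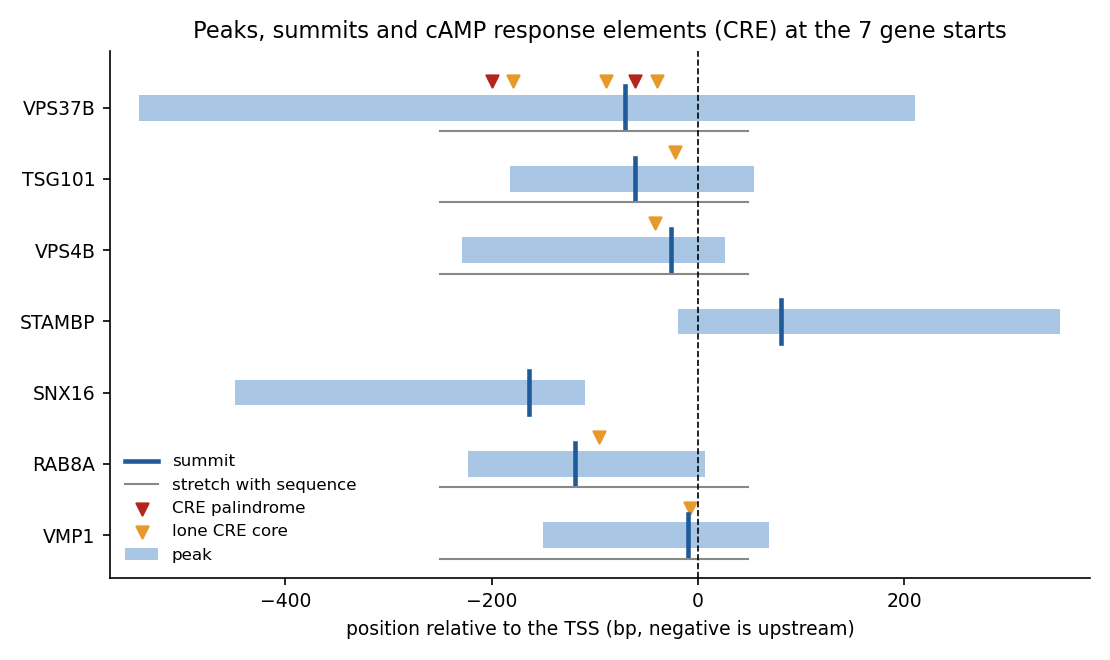
Peaks (bars), summits (vertical lines), CRE palindromes and lone cores (triangles) at the 7 starts, by distance from the authors' TSS (dashed line), with gene direction to the right. Grey lines mark the windows with sequence, which STAMBP and SNX16 lack here. In the 5 windows a site lies within 37 bp of the summit.

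CRE cores were common at promoter summits of this library in general. A core was present in 5 of the 5 windows of these genes (95% interval 47.8 to 100%, exact Clopper-Pearson), in 126 of the 142 other windows that held a summit (88.7%, 82.3 to 93.4) and in 6022 of 21930 windows without one (27.5%, 26.9 to 28.1). The full palindrome was present in 1 of the 5, in 38.0% of the other summit windows and in 2.01% of windows without a summit. With 5 windows, the share at these genes could not be told from that at other summits. The gap from summit to the nearest core was 0 to 37 bp at the 5 genes, against a median of 33 bp (quartiles 12 to 55.75) in the other summit windows with a core. In the 100 bases centred on the summit, a core was found in 5 of 5 windows of these genes and in 69 of 116 others. It was found in 12.3% of windows without a summit, read over 100 bases centred 80 bases upstream of the start, the median summit position. Windows of genes with several starts or facing starts overlap, so the windows are not independent.

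The GC content of the 5 windows was 59.0 to 68.3%, against a median of 62.3% (quartiles 53.0 to 70.0) over all windows and 64.2% in the other summit windows. The 5 windows held 19 to 37 CpG pairs, and the median over all windows was 21.

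**Figure D4:**
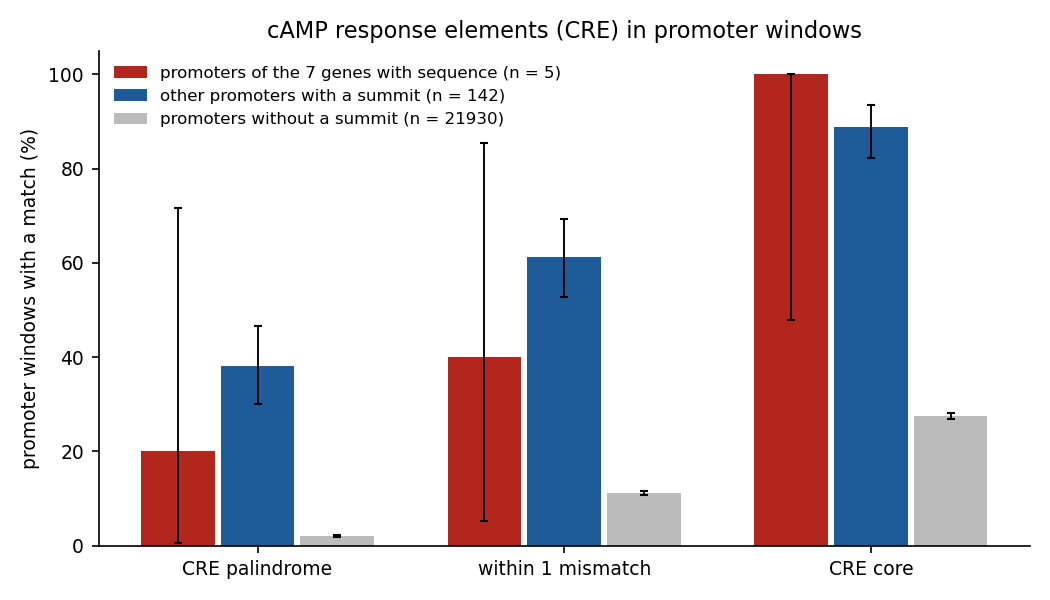
Share of promoter windows (%) with a CRE palindrome, a match within 1 mismatch or a core, with exact 95% intervals, for the 5 genes with sequence, other windows with a summit and windows without a summit. The core is in all 5 windows, 88.7% of other summit windows and 27.5% of windows without a summit.

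TSG101 and VMP1 shared a longer stretch around the core. The longest run of letters common to both windows was CCGGAAGTGACGT, 13 bases, on the gene strand in each. It began 31 bases upstream of the TSG101 start and 17 bases upstream of the VMP1 start. It joins GGAA, the centre of ETS family sites, to the CRE core. This comparison was chosen after the sequences had been read. In the other 9 pairs of the 5 windows the longest shared run was 8 to 10 bases, on either strand, and held no core. On both strands, the run was present in 30 of the 22078 windows (0.136%), of which 6 held a summit. A summit was held by 148 of all 22078 windows. The 6 windows with the run and a summit belong to 4 peaks: the ones at TSG101 and at VMP1 with PTRH2, 1 at KAT5 (fold 6.41) and 1 shared by LRRC8A and KYAT1-SPOUT1 (fold 6.52). The run was drawn from the TSG101 and VMP1 windows, so the summits there tell nothing about it. Outside the peaks of the 5 genes it was in 3 of 142 windows with a summit.

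The rest of the pathway was examined through 12 lists of 200 distinct genes that include the 7. Promoter peaks were found at 9 genes, the 7 and a further 2, SNF8 and RAB4B. Of the 193 genes outside the 7, the share was thus 1.04% (95% interval 0.126 to 3.69), near the 1.33% of all protein-coding genes. A further 13 were paired with a peak beyond 1 kb, so that 7.77% of the 193 had any pair, against 8.47% of all protein-coding genes.

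Within the ESCRT lists, promoter peaks lay at parts of ESCRT-I, ESCRT-II and the VPS4 group. Of the genes with one, SNF8 alone was not chosen for its peak. Set against 1.33% of all protein-coding genes, the counts below therefore tell nothing about the complexes. ESCRT-I held 2 of 9 genes, VPS37B and TSG101, with none at VPS37A, VPS37C, VPS37D or VPS28. ESCRT-II held SNF8 among 3 genes, with a summit 74 bp downstream of its TSS, 10 fragments (95% interval 4.80 to 18.4) over a background of 0.643 and a fold of 6.70. The 3 ESCRT-0 genes and the 12 ESCRT-III genes had none. CHMP5 and IST1 of ESCRT-III were paired with peaks 25.6 kb and 48.5 kb away, which lay within 1 kb of the TSS of NFX1 and ATXN1L. VPS4B was the only one of the 5 genes of VPS4 and partner proteins, and STAMBP the only one of 3 endosomal deubiquitinases. PDCD6IP, which encodes the ESCRT partner ALIX, had its nearest summit 27.1 kb past the TSS, with 4 fragments and a fold of 3.80.

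In the membrane traffic and autophagy lists, promoter peaks lay at SNX16, RAB8A, RAB4B and VMP1, of which RAB4B is the one not chosen for its peak. SNX16 was the only one of 30 sorting nexins with a promoter peak, and the 6 retromer genes had no pair. RAB8A and RAB4B were the 2 of 62 RAB GTPases. These shares are 3.33% of the sorting nexins and 3.23% of the RAB GTPases, and that of the autophagy list was 2.17%, against 1.33% of all protein-coding genes. Nothing can be read from them, since each count includes a gene chosen for its peak. RAB4B, a GTPase of endosome recycling, had its summit 448 bp upstream of the TSS with 5 fragments (95% interval 1.62 to 11.7) and a fold of 4.51. The read-through gene RAB4B-EGLN2 uses the same start. None of 12 regulators and partners of RAB8 had a promoter peak. TBC1D17, a GTPase-activating protein of this list, was paired with a peak of fold 4.82, the summit lying 1.77 kb downstream. VMP1 was the only one of 46 autophagy genes, and BECN1, of the autophagy lipid kinase complex, was paired with a peak 8.80 kb upstream (fold 6.85) that lies at PSME3. The 10 HOPS and CORVET tether genes had no promoter peak. Over the 13 genes with a pair beyond 1 kb alone, the nearest peak had a fold of 3.80 to 8.65, and none reached 10.

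**Figure D5:**
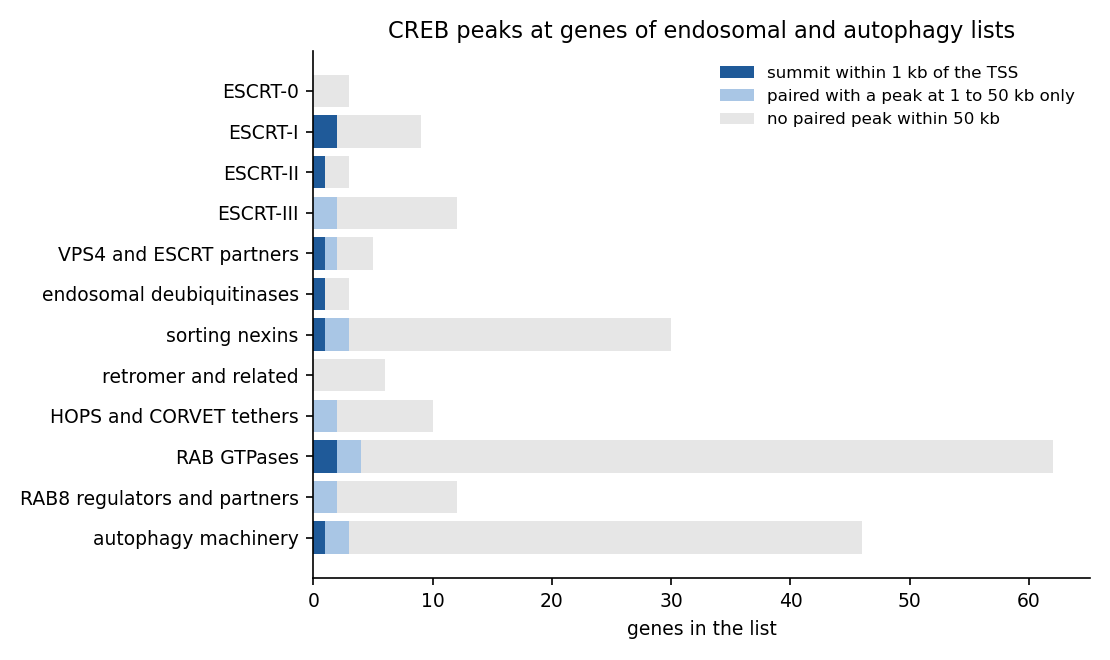
Number of genes in each of 12 lists with a summit within 1 kb of the TSS (dark), with a paired peak at 1 to 50 kb only (light) or with no pair (grey). Dark bars hold 1 or 2 genes, in 7 of the lists.

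CRE cores were also found at list genes without a promoter peak. Of 151 list genes with sequence and no promoter peak, 63 (41.7%) held a core in at least 1 of their windows, and 6 held the palindrome: CHMP1B, UBAP1, SNX5, RAB25, NRBF2 and GABARAPL1. A gene can have several windows, so these counts per gene cannot be set beside the shares per window given above. No share per gene over all genes is given here, so the counts do not show more cores in these lists than elsewhere. Of the 9 list genes with a promoter peak, 7 had sequence, and of these VPS37B held a palindrome. Over all windows, a summit was found in 10.8% of 482 windows with 1 palindrome (95% interval 8.16 to 13.9), in 1.36% of 5658 with a core alone and in 0.100% of 15924 with neither. Of the 14 windows with 2 or more palindromes, that of VPS37B included, 3 held a summit (21.4%, 95% interval 4.66 to 50.8). Binding too weak for a called peak was not detectable at this depth, at which the median summit of the list held 6 fragments and those of TSG101 and VPS4B held 9.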

How the data were processed

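The submitters' processing notes name Bowtie2, MACS2 and build hg38. Their versions and settings are not given in the sources at hand. The authors' deposited peak list gives each peak's fold enrichment (a ratio), −log10 p-value, −log10 q-value and score. In all 5285 peaks the deposited score equalled 10 times the −log10 q, cut to a whole number, and the lowest −log10 q was 1.32. The authors' table pairs peaks with TSS, 1 per symbol, and it was joined to the peak list by peak name. Replicates were lacking, so no test was run.

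Fragments and background at each summit were recovered by taking fold as fragments plus 1 over background plus 1 and p as the upper tail of a Poisson distribution. Whole fragments matched the −log10 p within 0.001 (above 100, within a relative 1e-05) in 5285 of 5285 peaks, and in 38 more than 1 number did, none of them a peak of the 7 genes. The recovery and the motif search were tested on simulated data. The simulated fold and p came from the formulas above, so this checks the code and not the formulas. Motifs were searched in 22078 RefSeq promoter windows of 15743 protein-coding genes (GRCh38.p14). All 200 list genes matched RefSeq by symbol, 158 with a window. Total read depths are not in the files analysed here. The genes, lists and comparisons were chosen with earlier results of these data known. Named genes are the 7, genes with a TSS within 1 kb of their summits, and list genes with a promoter peak or, beyond 1 kb, a fold of 10 or more. Other genes were named after their values were seen. Alternatives were distances of 500 bp and 5 kb, a −log10 q of 5, the peak edge, the strongest peak, no dense windows, a plain ratio and other motif rules. Python 3.11.15, pandas 2.3.3, scipy 1.17.1 and matplotlib 3.10.9 were used.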

Additional observations from a re-analysis of the deposited data

How the results depend on the processing

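All 7 genes had a promoter peak at 500 bp, at 5 kb, at a −log10 q of 5 or more, by the nearest peak edge and by the strongest peak within 50 kb. The genes were chosen for these peaks. Their summits lay at most 164 bp from the TSS, and their −log10 q was at least 7.67. None of these settings but the last could therefore have returned fewer genes. The count over the lists was 9, these 7 included, and stayed between 8 and 10 at 500 bp, at 5 kb, at a −log10 q of 5 or more and without dense windows. With nothing added to fragments or background, the ratio was higher than the deposited fold at every one of the 7 genes: 25.3 at VPS37B, 30.3 at TSG101, 32.5 at VPS4B, 44.6 at STAMBP, 85.4 at SNX16, 27.8 at RAB8A and 51.8 at VMP1. By construction, adding 1 shrinks the ratio most where the background is lowest. Of the 5 genes with sequence, 1 held the CRE palindrome, 2 a match within 1 mismatch and 5 the CRE core, and 1 held the palindrome in the 100 bases at the summit. No paired analysis was possible because there is 1 ChIP library and no test. Depth limits these results: with 9 fragments, the interval at TSG101 and VPS4B runs from 4.12 to 17.1.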

Other observations

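The peak next to that of VPS37B on chromosome 12 also had a high background. It lay 670 kb from it, at chr12:122225783-122226234, with 35 fragments over a background of 3.16 and a fold of 8.65, and is paired with DIABLO, B3GNT4, LOC101593348 and VPS33A, a subunit of the HOPS tether. DIABLO encodes a mitochondrial protein released in apoptosis. On the other side, the peak 738 kb from VPS37B had a background of 0.321, and the 3 peaks 1193 to 2017 kb away had backgrounds of 0.246 to 0.316. The peaks with backgrounds of 2.53 and 3.16 thus stood between peaks with backgrounds of 0.246 to 0.632. The cause was not tested.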
